A study of Rattus norvegicus with 6 samples.

Results

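The Elavl family, also called the Hu proteins, comprises the RNA-binding proteins Elavl1 (HuR), Elavl2 (HuB), Elavl3 (HuC) and Elavl4 (HuD). It was followed through every probe set that the platform annotation assigns to 1 of these 4 symbols, which gave 4 of the 14217 genes named by a single symbol and 9 of the 31099 probe sets on the array: 3 for Elavl1, 3 for Elavl2, 2 for Elavl3 and 1 for Elavl4. The family was chosen on the measured values of these arrays, because 2 Elavl2 probe sets were higher with Math2 than with the control vector. Differences of the members between Math2 and control are therefore described without a test.

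Cells of the rat cerebral cortex were grown in primary culture and received 13.3 µg of a Math2 vector or of a control vector in each 10-cm dish. Math2 stands for the gene now called Neurod6, whose product belongs to the basic helix-loop-helix (bHLH) family and is found in cortical neurons. In both groups 2.7 µg of a second vector encoded truncated LNGFR, a nerve growth factor receptor cut short to serve as a tag on the cell surface. Tagged cells were pulled out with magnetic beads after 24 h, so the tag is common to Math2 and control. The 6 arrays were 3 Math2 and 3 control samples numbered 1 to 3. The sources used here give neither the promoter of the vectors, nor the species of the Math2 sequence, nor the strain and age of the rats, nor whether the samples came from separate cultures.

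Elavl proteins bind uridine-rich and AU-rich stretches in messenger and precursor RNA through RNA recognition motifs. They are known for slowing the decay of bound messages, for promoting their translation and, in neurons, for directing alternative splicing and polyadenylation. Elavl1 is made in nearly all cell types and shuttles between nucleus and cytoplasm, whereas Elavl2, Elavl3 and Elavl4 are largely restricted to neurons and serve as markers of neuronal commitment.

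Since Math2 is a bHLH factor and such factors bind E-boxes (CANNTG, a pattern that reads the same on both strands), the RefSeq windows at the annotated starts of the members are shown for Elavl2 and for its neuronal paralogues Elavl3 and Elavl4. Each window runs from 250 bases before to 50 bases after the start in the GRCr8 assembly, is printed 5′ to 3′ on the gene's own strand, and has each E-box in capitals. They are chr5:111202238-111202537 for Elavl2, chr8:28858964-28859263 for Elavl3 and chr5:130367614-130367913 for Elavl4, all on the minus strand.
Elavl2: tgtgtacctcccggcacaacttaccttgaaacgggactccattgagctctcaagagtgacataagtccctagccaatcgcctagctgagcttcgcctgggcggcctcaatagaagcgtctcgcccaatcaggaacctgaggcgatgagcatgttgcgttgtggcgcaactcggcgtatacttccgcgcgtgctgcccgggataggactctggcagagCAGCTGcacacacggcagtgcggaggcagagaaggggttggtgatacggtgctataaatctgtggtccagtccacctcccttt
Elavl3: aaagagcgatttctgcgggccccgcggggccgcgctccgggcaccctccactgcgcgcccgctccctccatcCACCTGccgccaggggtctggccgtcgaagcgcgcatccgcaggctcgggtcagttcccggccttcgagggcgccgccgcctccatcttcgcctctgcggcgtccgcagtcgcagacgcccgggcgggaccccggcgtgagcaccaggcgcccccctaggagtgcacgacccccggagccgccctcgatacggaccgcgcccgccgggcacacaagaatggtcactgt
Elavl4: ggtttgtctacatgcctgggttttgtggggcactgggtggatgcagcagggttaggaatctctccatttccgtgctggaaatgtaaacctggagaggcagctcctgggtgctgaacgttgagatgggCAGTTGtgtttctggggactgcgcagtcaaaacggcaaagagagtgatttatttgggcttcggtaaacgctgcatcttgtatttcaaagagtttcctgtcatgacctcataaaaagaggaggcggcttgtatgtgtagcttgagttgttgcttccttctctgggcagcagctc
All 4 members matched a window. Elavl2 held 1 E-box, CAGCTG, with its first base 33 bases before the start. Elavl3 held 1, CACCTG, at 178 bases before the start, and Elavl4 held 1, CAGTTG, at 123 bases before the start. The Elavl1 window held 0. Of 33469 windows in the whole table, 72.1% held at least 1 CANNTG and 15.1% held CAGCTG, so the presence of an E-box is common in windows of this length. The form CAGATG, read on both strands, was in 16.6% of windows and in 0 of the 4 members' windows. These are matches of letters, and binding was not measured here.

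The arrays had median signals of 102 to 120. Hybridization spike-ins, transcripts of fixed amount, had geometric mean signals of 4427 to 7879 on Math2 arrays and 2219 to 2960 on control arrays (exact two-sided permutation p = 0.1, the smallest that 3 against 3 arrays allow). Of the 187 brightest tested probe sets, 186 were higher on the Math2 arrays, with a median log2 difference of 0.43, against -0.031 over all 18625 tested probe sets. The ratio of Gapdh signal at the 3′ end to that at the 5′ end, which is higher where labelled RNA is less complete, ran from 6.0 to 8.48 in Math2 and from 3.74 to 13.8 in control. Neurod6 itself, whose probe set may lie outside the transfected sequence and so checks nothing about the labels, had signals of 312, 167 and 1546 on Math2 arrays 1, 2 and 3 and of 386, 207 and 973 on control arrays 1, 2 and 3.

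Elavl2 was about 2-fold higher in the Math2 arrays in its brighter pair of probe sets. Probe set 1383736_at, the brightest of the 3, had signals of 5057, 4268 and 4995 on Math2 arrays 1, 2 and 3, against 2767, 2056 and 2188 on control arrays 1, 2 and 3. The 3 Math2 signals all exceeded the 3 control signals. Its mean was 4773 ± 439 in Math2 and 2337 ± 378 in control (SD, n = 3 each), a log2 difference of 1.04 (SE 0.152) on the log2(signal + 7.41) scale. The numbered pairs gave log2 differences of 0.87, 1.05 and 1.19.

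Probe set 1383768_at of Elavl2 had signals of 1590.4, 1956 and 1587 on Math2 arrays 1, 2 and 3, against 931, 845 and 837 on control arrays 1, 2 and 3. Here too the groups did not overlap. The mean was 1711 ± 212 in Math2 and 871 ± 51.8 in control (SD, n = 3 each), with a log2 difference of 0.96 (SE 0.111) and pair values of 0.77, 1.20 and 0.92. Probe sets 1383736_at and 1383768_at gave differences of nearly the same size, but the family was chosen for their rise, so nothing is read from this likeness. The Math2 array with the lowest signal of 1383736_at, array 2, had the highest signal of 1383768_at.

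The remaining Elavl2 probe set, 1381677_at, was dim. It had signals of 22.4, 96.7 and 51.7 on Math2 arrays 1, 2 and 3, against 31.0, 39.9 and 27.2 on control arrays 1, 2 and 3. The groups overlapped, and every value lay below every array median, so that no detection can be claimed. Its log2 difference was 0.51 (SE 0.538), and its mean log2 value of 5.57 fell under the limit of 6.07 set for testing.

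**Figure D1:**
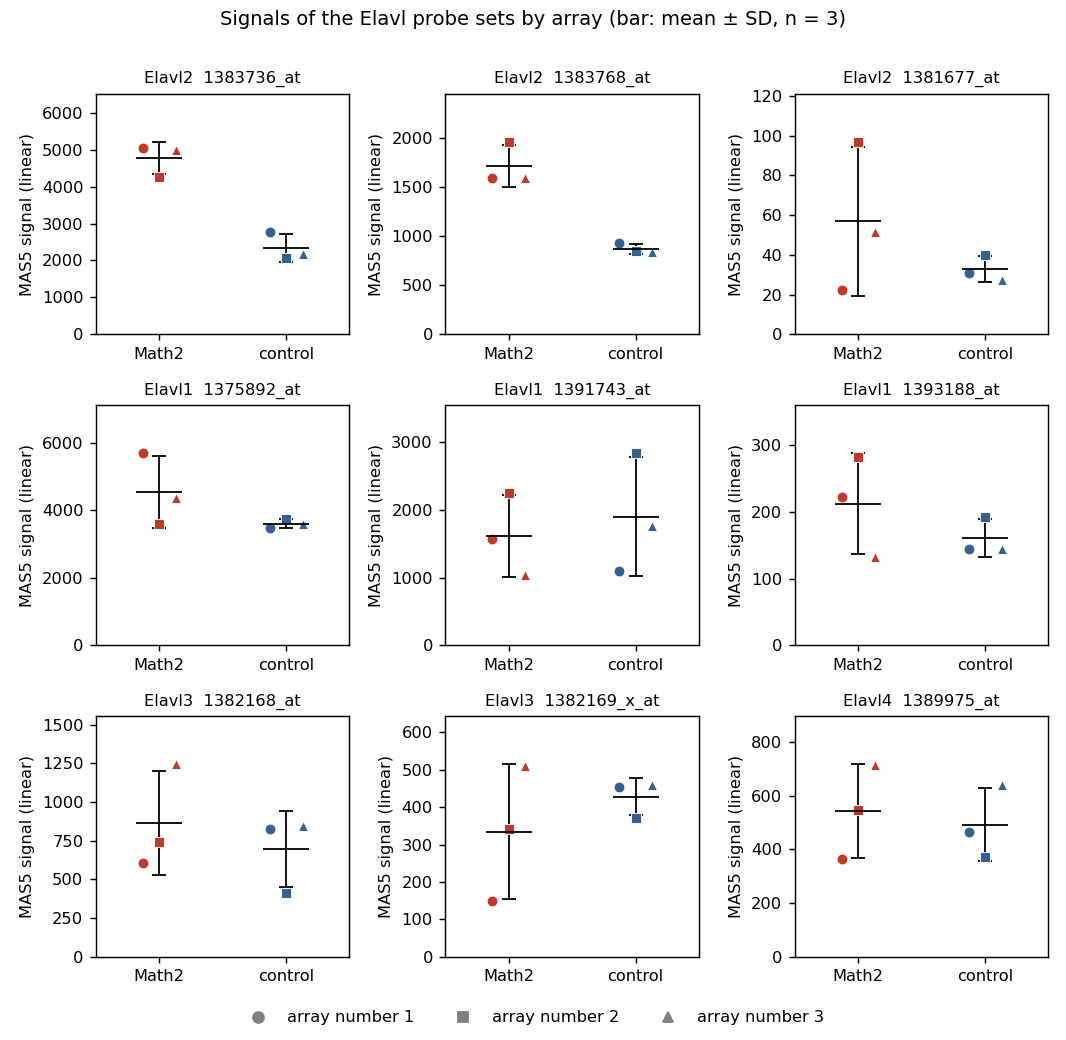
MAS5 signal on a linear axis from 0 for each of the 9 Elavl probe sets, Math2 arrays left (red) and control arrays right (blue), with symbols for the array number and bars for mean ± SD (n = 3). For Elavl2 1383736_at the Math2 arrays sit between 4268 and 5057 and the control arrays between 2056 and 2767, and 1383768_at is also without overlap, whereas the groups overlap in the other 7 probe sets.

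The spread within the groups differed between probe sets of the same gene. For Elavl2 the SD was 9.19% of the mean in Math2 and 16.2% in control for 1383736_at, 12.4% and 5.94% for 1383768_at, and 65.8% and 19.9% for the dim 1381677_at. Over the Elavl1, Elavl3 and Elavl4 probe sets the same ratio ran from 23.4% to 54.1% in Math2 and from 3.66% to 46.2% in control.

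The size of the Elavl2 difference can be placed among all probe sets as a description. Of 18625 tested probe sets, 109 had a larger log2 difference than 1383736_at and 144 a larger one than 1383768_at. The shift of bright signals on the Math2 arrays stands beside this: over the 1324 probe sets within 0.5 log2 units of the mean level of 1383736_at the median log2 difference was 0.019, and over the 2631 around 1383768_at it was -0.057. After quantile normalization the Elavl2 differences were 1.00 and 1.01.

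**Figure D2:**
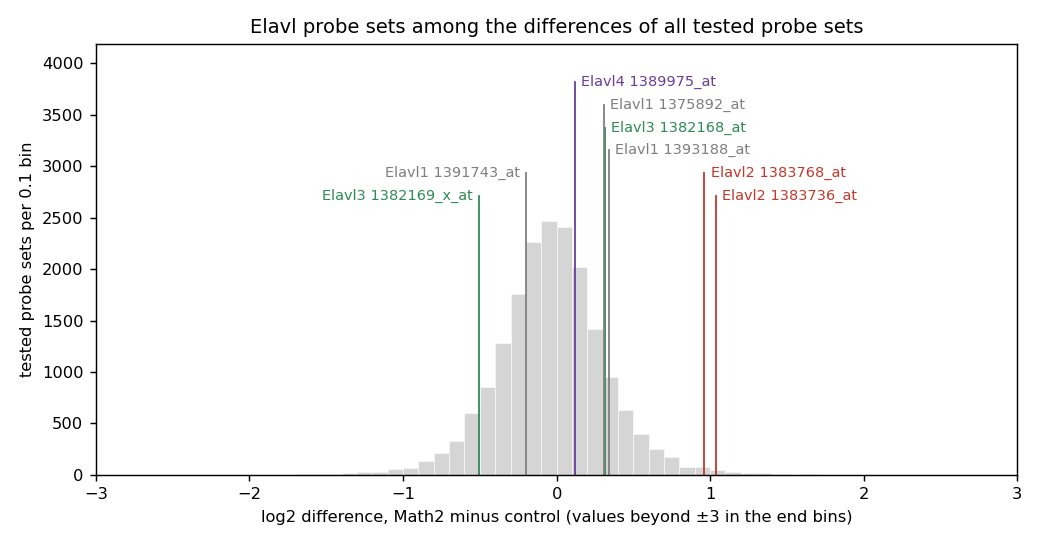
Histogram of the log2 difference, Math2 minus control, over the 18625 tested probe sets in bins of 0.1, with lines for the 8 tested Elavl probe sets coloured by gene. The Elavl2 lines at 0.96 and 1.04 lie in the upper tail, and the 6 lines of Elavl1, Elavl3 and Elavl4 lie between -0.51 and 0.34.

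Elavl1, the family member common to most cell types, had 3 probe sets and overlap between the groups in each. Its brightest, 1375892_at, had signals of 5684, 3579 and 4358 on Math2 arrays 1, 2 and 3, against 3469.8, 3733 and 3600.4 on control arrays 1, 2 and 3. Math2 array 1 stood highest, and Math2 array 2 lay between the lowest and the middle control array. The mean was 4540.2 ± 1064 in Math2 and 3601 ± 132 in control (SD, n = 3 each), with a log2 difference of 0.31 (SE 0.195). Without Math2 array 1 that difference was 0.13.

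The other Elavl1 probe sets did not share a direction. Probe set 1391743_at had signals of 1570.5, 2247 and 1033 in Math2 and of 1100.1, 2840.0 and 1759 in control, in the order of the array numbers. Array 2 was highest in both groups, and the log2 difference was -0.20 (SE 0.509). Leaving out control array 2 turned it to 0.14, and leaving out Math2 array 3 turned it to 0.089. Probe set 1393188_at had signals of 222, 282 and 132 in Math2 and of 144, 193 and 144 in control, with a log2 difference of 0.34 (SE 0.338), which was 0.11 without Math2 array 2. The annotation also lists a pseudogene of Elavl1 in the rat, and whether its transcripts reach these probes is unknown.

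Elavl3, a neuronal member, was measured by 2 probe sets made from the same source sequence, and they differed in sign. Probe set 1382168_at had signals of 604, 740.4 and 1243 on Math2 arrays 1, 2 and 3, against 825, 411 and 845 on control arrays 1, 2 and 3. Array 3 was highest in both groups. The mean was 863 ± 337 in Math2 and 694 ± 245 in control (SD, n = 3 each), and the log2 difference was 0.31 (SE 0.456). Leaving out control array 2 gave -0.021, and leaving out Math2 array 3 gave 0.019.

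Probe set 1382169_x_at, whose suffix marks probes that may also match other transcripts, had signals of 150.0, 340.5 and 511 on Math2 arrays 1, 2 and 3, against 455, 371 and 459.6 on control arrays 1, 2 and 3. Math2 array 1 was by far the lowest. The log2 difference of -0.51 (SE 0.515) was -0.030 without that array. Elavl3 therefore had no direction that both probe sets or all arrays shared.

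Elavl4, a neuronal member known from studies of neurite growth and plasticity, had 1 probe set, 1389975_at. Its signals were 364, 548 and 715 on Math2 arrays 1, 2 and 3, against 465, 371 and 639.6 on control arrays 1, 2 and 3. The groups overlapped throughout, and array 3 was highest in both. The mean was 542 ± 175 in Math2 and 492 ± 136 in control (SD, n = 3 each), and the log2 difference was 0.12 (SE 0.358). It became -0.10 with Math2 array 3 left out and -0.061 with control array 2 left out.

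Side by side, the brightest probe set of each gene had a log2 difference of 1.04 for Elavl2, 0.31 for Elavl1, 0.31 for Elavl3 and 0.12 for Elavl4. Whether Elavl2 differed from its paralogues was not tested, because it was picked for its difference in this same contrast. Of the 8 tested member probe sets, 2 had all Math2 arrays above all control arrays, where 3.7% of all tested probe sets did, and 0 had all Math2 arrays below, where 4.3% did. Limma called 0 of the 8 at an adjusted p under 0.05, with 0% of all tested probe sets called, and again 0 of the 8 with the array number as a replicate block, with 0.0161% called. At an unadjusted p under 0.05 limma had 326 higher and 268 lower probe sets without the block, and 704 higher and 731 lower with it. Since the members were chosen from this contrast, nothing is read from these counts.

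**Figure D3:**
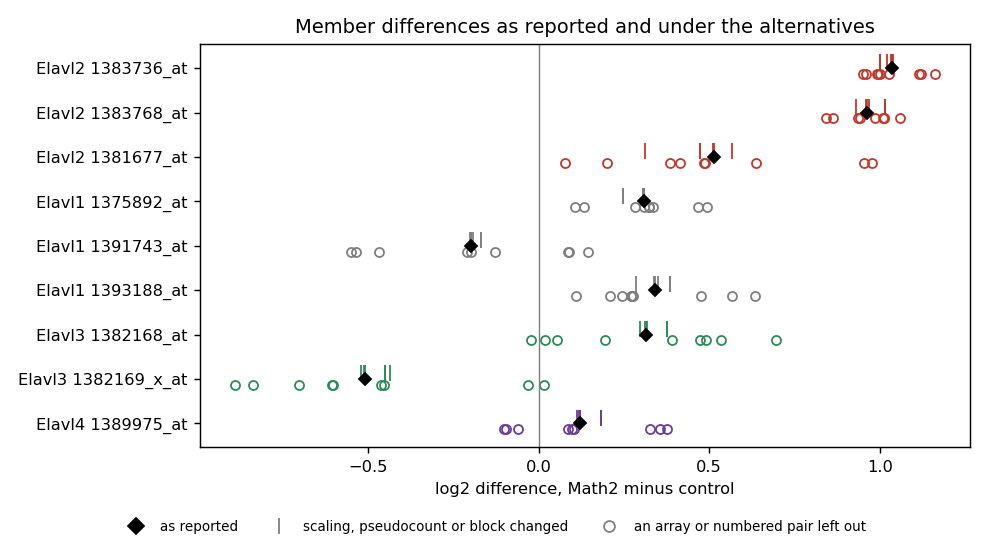
Log2 difference, Math2 minus control, of each Elavl probe set as reported (diamonds), with another scaling, pseudocount or the replicate block (ticks), and with an array or a numbered pair left out (open circles). Elavl2 1383736_at stays between 0.95 and 1.16 and 1383768_at between 0.84 and 1.06. Both were chosen for this difference and have groups without overlap, so leaving out arrays could not change their sign. Elavl4, both Elavl3 probe sets and Elavl1 1391743_at each have values on both sides of 0.

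The array profiles of the neuronal paralogues Elavl3 and Elavl4 were set beside that of neuronal markers. As a measure of likeness, log2 values were centred on their mean over the 6 arrays, and the root mean square (RMS) difference between 2 such profiles was taken. The mean profile of 17 tested pan-neuronal markers was -0.49, -0.27 and 0.81 on Math2 arrays 1, 2 and 3, and -0.26, -0.41 and 0.62 on control arrays 1, 2 and 3. Neuronal markers were thus highest on array 3 of both groups. In such mixed samples fewer neurons and less neuronal RNA per cell cannot be told apart.

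Elavl4 lay at an RMS difference of 0.242 from this marker profile, Elavl3 1382168_at at 0.332 and Elavl3 1382169_x_at at 0.466. The Elavl1 probe sets lay at 0.601 (1375892_at), 0.881 (1391743_at) and 0.822 (1393188_at). Elavl2 1383736_at lay at 0.733, 1383768_at at 0.732 and the dim 1381677_at at 0.771. The profiles of 1383736_at and 1383768_at consist largely of the group difference for which Elavl2 was chosen, so nothing is read from their distance to the markers or to the paralogues. Elavl3 1382168_at and Elavl4 were also close to each other, with an RMS difference of 0.245, while Elavl2 1383736_at lay 0.544 from that Elavl3 probe set and 0.602 from Elavl4. The Elavl2 probe sets 1383736_at and 1383768_at were the closest pair of all members, at 0.200, with the group difference that chose them in both profiles. Elavl3 1382168_at lay nearer to oligodendrocyte lineage markers (0.276) and to other neuronal RNA-binding and splicing proteins (0.305) than to pan-neuronal markers. Elavl4 lay at 0.249 from the oligodendrocyte list, slightly farther than from the pan-neuronal markers, and at 0.208 from the RNA-binding list. The oligodendrocyte list held 7 tested genes, and the RNA-binding list shares Rbfox3 with the pan-neuronal markers. Whether the nearness is particular to neuronal genes was not tested.

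**Figure D4:**
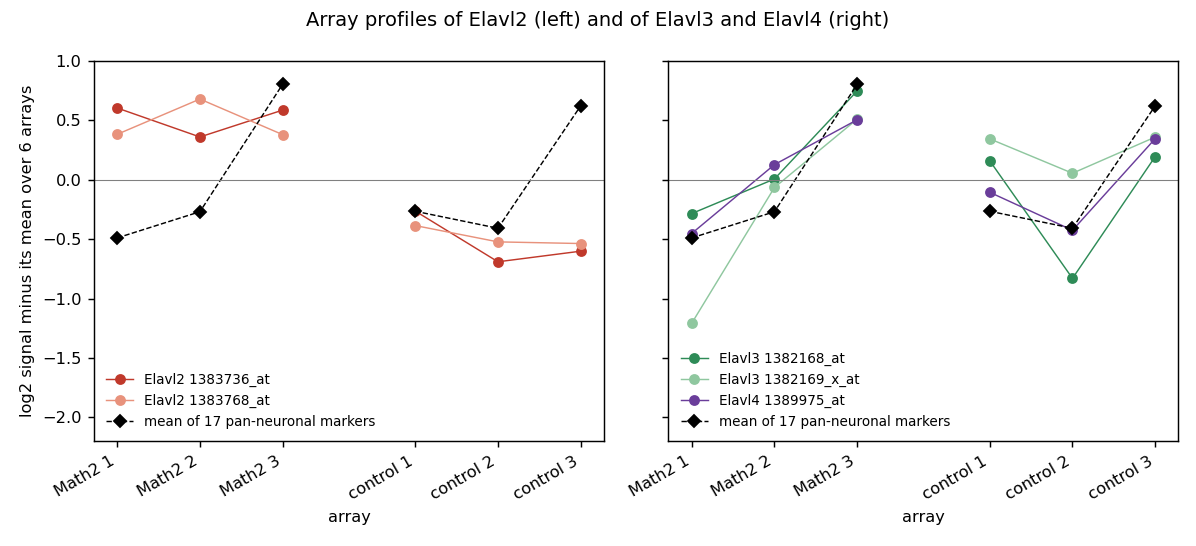
Log2 signal minus its mean over the 6 arrays, with Math2 arrays on the left and control arrays on the right of each panel, for Elavl2 (left panel) and for Elavl3 and Elavl4 (right panel). The dashed line is the mean of 17 pan-neuronal markers, and lines only join points of 1 probe set or list. The markers and Elavl4 are highest on array 3 of each group, the markers at 0.81 in Math2 and 0.62 in control. Elavl4 is at 0.51 and 0.35 there, and on Math2 array 2 it is at 0.13 where the markers are at -0.27. Elavl2 1383736_at and 1383768_at are the only Elavl2 probe sets drawn and were chosen for this difference. Their points sit above 0 on all Math2 arrays and below 0 on all control arrays.

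The genes most like Elavl2 1383736_at in array profile were Cbfa2t2 (RMS difference 0.176), Tmem178a (0.183), Prdm2 (0.194), Myl2 (0.196), Kctd14 (0.197) and Atp5if1 (0.204), against a median of 0.659 over the tested probe sets. Cbfa2t2 is a transcriptional corepressor, Prdm2 a histone methyltransferase, Myl2 a myosin light chain and Atp5if1 an inhibitor of the mitochondrial ATP synthase. Of Elavl2's own probe sets, 1383768_at had 8 tested probe sets nearer and the dim 1381677_at had 10271. Probe sets 1383736_at and 1383768_at were both chosen for their rise, so nothing is read from their nearness. Cbfa2t2 measured 139.7 ± 14.7 in Math2 and 65.2 ± 15.2 in control, and Tmem178a 1334 ± 204 and 608 ± 96.9 in the same order (SD, n = 3 each). The control signals of Cbfa2t2 and of Prdm2 were below the array medians. In all 6 the groups did not overlap, with Math2 higher, as a profile like that of Elavl2 requires, and this likeness over 6 arrays is a description.

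Factors that act on the same AU-rich elements as the Elavl proteins showed small differences. Of 18 listed genes, 14 were on the array and tested, 6 were higher and 8 lower. The list's median was -0.11 (log2 difference), within a range of -0.31 to 0.22. Over all tested probe sets 45.7% were above 0. Limma called 0 of the 14, and 0 had an unadjusted p under 0.05. Zfp36l2, which promotes decay of AU-rich messages, measured 3413 ± 324 in Math2 and 4162 ± 394 in control (SD, n = 3 each; log2 difference -0.29), with all Math2 arrays below all control arrays. Hnrnpab, an RNA-binding protein of the same element, had a log2 difference of 0.22 that became -0.035 with quantile normalization. Cnot1 and Parn, both of the deadenylation machinery, had -0.31 and -0.23.

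The second list held ligands of Elavl1, its nuclear transport receptors and enzymes known to modify it. Of 16 listed, 14 were on the array and 13 were tested, with 5 higher and 8 lower, a median of -0.048 and 0 called by limma (0 at an unadjusted p under 0.05). Mapk14, the p38 kinase that phosphorylates Elavl1, had signals of 1189, 1389 and 1299 on Math2 arrays 1, 2 and 3, against 1676, 1534 and 1714 on control arrays 1, 2 and 3. The groups did not overlap, and the log2 difference was -0.34. Prkca, a protein kinase C that also phosphorylates Elavl1, had -0.51, Parp1 -0.28 and Cdk1 0.23. Without control array 3 the list's median was 0.089.

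Among other RNA-binding and splicing proteins of neurons, 33 of 41 listed genes were on the array and 32 were tested. Of these 18 were higher and 14 lower, the median was 0.022 and limma called 0 (0 at an unadjusted p under 0.05). Rbfox3, the splicing factor known as NeuN, had signals of 79.1, 264 and 289 on Math2 arrays 1, 2 and 3, against 50.3, 53.4 and 163 on control arrays 1, 2 and 3, a log2 difference of 1.18 with overlap and from a control mean below the array medians. Ptbp2, the neuronal polypyrimidine tract-binding protein, measured 2570 ± 1494 in Math2 and 1522 ± 678 in control (SD, n = 3 each), with a difference of 0.66. Khdrbs1, a splicing regulator, had 0.30 with no overlap between the groups, and 0.10 with quantile normalization. Stau1, which carries messages into dendrites, had -0.37. As a list these genes lay at an RMS difference of 0.208 from Elavl4.

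Of 38 genes whose messages are known to be bound by Hu proteins, 31 were on the array and 25 were tested. They were 13 higher and 12 lower with a median of 0.017, which was -0.063 with quantile normalization. Limma called 0, with 2 higher and 0 lower at an unadjusted p under 0.05, where 326 of all 18625 tested probe sets were higher and 268 lower. In 4 of the 25 all Math2 arrays lay above all control arrays, beside the 3.7% given above for all tested probe sets, and 0 lay below, beside 4.3%. The list was written with earlier results of these data known, so nothing is read from these counts. Those 4 were the cytokine gene Tnf, the survival gene Mcl1, the cytoskeletal regulator Marcks and the transcription factor Mycn, with log2 differences of 2.30, 0.47, 0.39 and 0.46. Tnf had signals of 558, 131 and 115 on Math2 arrays 1, 2 and 3, against 26.5, 41.8 and 40.6 on control arrays 1, 2 and 3, so array 1 held most of its Math2 mean and the control signals were below the array medians. With quantile normalization Mcl1 had 0.34, Marcks 0.21 and Mycn 0.49. Gap43, the growth cone protein whose message Elavl4 is known to stabilize, measured 9028 ± 1214 in Math2 and 8881 ± 556 in control (SD, n = 3 each), a log2 difference of 0.017 that became -0.17 with quantile normalization.

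**Figure D5:**
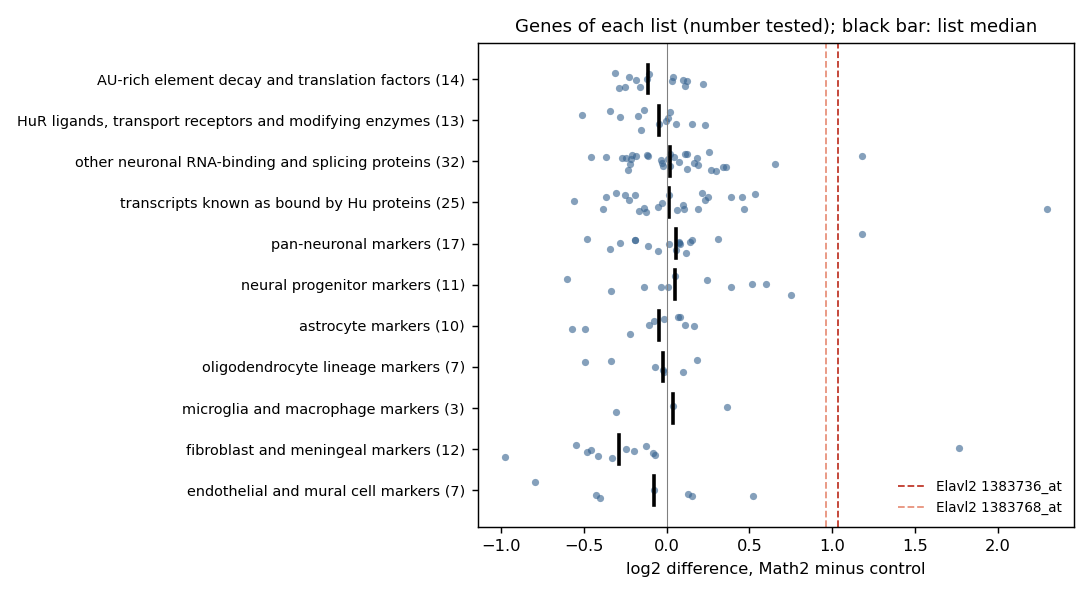
Log2 difference, Math2 minus control, of each tested gene (points) in the 11 lists, with the list median as a black bar and the number tested in brackets. The dashed lines mark the Elavl2 differences of 0.96 and 1.04, and the list medians lie between -0.29 and 0.056.

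Markers of cell types were listed to describe the makeup of the samples. Of 20 pan-neuronal markers, all were on the array and 17 were tested, with 10 higher and 7 lower, 0 called by limma and a list median of 0.056 (log2). Their summed signal ran from 20787 to 44073 in Math2 and from 21148 to 36487 in control, ranges that overlapped. Rbfox3, Gap43 and Mapt stand both among these markers and in a list above. Leaving out array 3 of a single group moved the list's median to -0.47 (Math2) or 0.46 (control).

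Neural progenitor markers had 7 of 11 higher and a median of 0.051. Their summed signal was 49611 to 74641 in Math2 and 49928 to 55019 in control. Vim, a bright intermediate filament gene of progenitors, had a log2 difference of 0.51 that became -0.033 with quantile normalization. Fabp7 likewise went from 0.39 to -0.15. Notch1 had -0.61 and Hes5 0.75, each with no overlap between the groups, and with quantile normalization they had -0.60 and 0.71. All Hes5 signals were below the array medians. Astrocyte markers had 4 of 10 higher (median -0.045, sums of 25779 to 41871 in Math2 and 28857 to 38317 in control), and oligodendrocyte lineage markers 2 of 7 (median -0.023, sums of 9261 to 12858 and 8612 to 13678). Fibroblast and meningeal markers had 1 of 12 higher, 11 lower and a median of -0.29, with sums of 10875 to 11169 in Math2 and 11179 to 14867 in control, so the groups did not overlap, by a narrow margin. The higher marker, Pdgfrb, had the largest difference of the list, 1.77 (1.75 with quantile normalization). Its groups did not overlap, and its control signals were below the array medians. In 3 of the 12 all Math2 arrays lay below all control arrays, beside 4.3% of all tested probe sets. In 1 they lay above, beside 3.7%. Among the 3 were Aldh1a2, with a log2 difference of -0.98, and Fbn1, with -0.45. All Math2 signals of Aldh1a2 were below the array medians. The list was written with earlier results known, so nothing is read from these counts. Endothelial and mural markers had 3 of 7 higher (median -0.078, sums of 7724 to 9769 in Math2 and 6701 to 10701 in control).

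Microglia and macrophage markers were weak: 3 of 15 were tested, with a summed signal of 493 to 652 in Math2 and 533 to 740.0 in control over all 15, and the defining genes Aif1, Cx3cr1 and P2ry12 were under the testing limit. No marker was listed at 0, but the lowest signal of any probe set was 0.059, so nothing about presence is read from this. Limma called 0 genes of any marker list. At an unadjusted p under 0.05 limma had 1 higher and 1 lower among progenitor markers. Among astrocyte markers it had 1 lower, Fgfr3, with a log2 difference of -0.57 and no overlap between the groups. Fibroblast and meningeal markers had 1 higher and 1 lower. The fibroblast and meningeal median was lower in Math2, whereas Elavl2 was higher, and any link between them was not tested.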

How the data were processed

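Per the submitters' processing notes, the authors made the deposited intensity values with MAS5 (no version given), which gives 1 linear signal per probe set and array. The trimmed mean was 500 on every array, so the deposited intensity values were used as already scaled. No detection calls or depth were used, and the 3 arrays per group limit the precision.

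The 57 control probe sets were left out. Signals became log2(signal + 7.41), the pseudocount being the 10th percentile of the values, which understates changes of dim probe sets. Probe sets at or above the 40th percentile of mean log2 were tested (18625) with limma 3.58.1 in R 4.3.3 (lmFit, eBayes with trend, two-sided, Benjamini-Hochberg, threshold 0.05), after tests on simulated data. SEs of members come from the spread of their own 6 values. Gene names came from the platform annotation, 20758 matched by gene number to RefSeq, with 0 changed. The labels do not name separate cultures, so the spread and p-values may be technical.

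Array numbers were treated as pairs because deviations from group means correlated at 0.326, 0.476 and 0.372 for numbers 1, 2 and 3. Between unlike numbers the correlations ran from -0.460 to 0.104. Deviations within a group sum to 0, so the unlike values are not independent of the like ones. Whether arrays of the same number share a culture was not tested. This pairing rests on the data, not on the labels. The main fit had no block.

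Members and lists were chosen with earlier results of these data known. Named are all member probe sets, Neurod6, up to 4 genes per list by smallest p and the 6 nearest to Elavl2. A gene in a list is its brightest probe set. Gap43, Aif1, Cx3cr1 and P2ry12 were named outside this rule after their values were seen, as were the genes under Other observations. Alternatives changed scaling, pseudocount, filter, variance trend, block and arrays used.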

Additional observations from a re-analysis of the deposited data

How the results depend on the processing

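The count of probe sets called by limma was 0 with each scaling, pseudocount, filter and variance model tried without the replicate block. With the block it was 3, and with the block and quantile normalization 5. Leaving out single arrays without the block gave 0 each time, and with the block it gave 5 without pair 1, 112 without pair 2 and 18 without pair 3. Only the fit without pair 2 called a member, Elavl2 1383736_at, which says nothing independent since it was chosen from this contrast. The block left the size of every member difference as it was.

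Over the alternatives, leave-outs included, the log2 difference ran from 0.95 to 1.16 for Elavl2 1383736_at, from 0.84 to 1.06 for 1383768_at, from 0.11 to 0.49 for Elavl1 1375892_at, from -0.021 to 0.69 for Elavl3 1382168_at and from -0.10 to 0.38 for Elavl4. Signs changed only with arrays or pairs left out. For Elavl2 1383736_at and 1383768_at, whose groups did not overlap, no leave-out could change the sign. Nothing is read from their steadiness, since they were chosen for this difference. Among lists, the median kept its sign in every setting for AU-rich element factors (-0.12 to -0.028) and for fibroblast and meningeal markers (-0.43 to -0.077). The other 9 changed sign in at least 1 setting, and the pan-neuronal median ran from -0.47 to 0.46. Quantile normalization turned the medians of neuronal RNA-binding proteins, Hu-bound transcripts and progenitor markers. The microglial list had no gene past the stricter filter. Signals below the array medians, such as Elavl2 1381677_at, have no known distance from background.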

Other observations

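The genes nearest in array profile to Elavl3 1382168_at and to Elavl4 were looked up after the values were seen. For Elavl3 1382168_at they were led by Gabra2, a GABA-A receptor subunit (RMS difference 0.104). Ttll7, a tubulin polyglutamylase (0.113), and Fer (0.113) came next, against a median of 0.596 over tested probe sets. Gabra2 had signals of 80.4, 85.4 and 182 on Math2 arrays 1, 2 and 3, against 103, 53.1 and 102 on control arrays 1, 2 and 3. On Math2 arrays 1 and 2 and control arrays 2 and 3 its signal was below the median of the array. For Elavl4 they were led by Mn1, a transcriptional coregulator (0.0516), with signals of 1067, 1560.4 and 2159 on Math2 arrays 1, 2 and 3, against 1467, 1074 and 1827 on control arrays 1, 2 and 3. The median over tested probe sets was 0.496.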
